A study of Drosophila melanogaster with 31 samples.

Results

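Cytosolic glutathione S-transferases (Gst) are enzymes that join the tripeptide glutathione to reactive or foreign molecules. They were followed in Drosophila melanogaster wing imaginal discs, the larval epithelia that form the adult wing and notum. The family was taken as every gene of the count table whose symbol is Gst followed by a class letter and a number, which gave 35 of 17373 genes: 11 of the Delta class, 14 Epsilon, 3 Omega, 1 Sigma, 4 Theta and 2 Zeta. All 35 symbols matched the reference gene table.

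The discs were mosaic. A FLP recombinase driven by ubx (ubxflp) recombined FRT82B chromosomes, so that patches homozygous for the test chromosome grew beside cells that kept M(3), a Minute mutation that slows growth, and ubiGFP. Cells of the M(3) chromosome were therefore part of every group, the control included, and their share of the RNA was not measured. Groups of 3 libraries each came from larvae of the last instar: cic wts (cicQ474X with wts149) and wts (wts149) at day 9, cic wts, wts and cic (cicQ474X) at day 5, and a day 5 control whose FRT82B chromosome carried neither mutation. All carried y w. Capicua, the product of cic, is a repressor relieved by Ras/EGFR signalling, and Warts, the product of wts, is the Hippo pathway kinase that restrains Yorkie. The comparisons ask how the response to loss of cic, which stands for active Ras signalling, differs with and without wts. No day 9 control or cic group was analysed here. Each library was a pool of hand-dissected discs from several larvae, and the labels do not say whether pools of a group came from separate cultures. The p-values therefore cover the spread among libraries, which may be technical.

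Insect Gst genes expanded mainly in the Delta and Epsilon classes, whose enzymes detoxify insecticides, plant compounds and products of lipid oxidation. Their transcription is a common readout of oxidative stress, through the factor CncC (encoded by cnc) and its inhibitor Keap1, and several of them belong to the response that the bZIP factor Xrp1 starts in Minute cells. Omega enzymes act on small thiols, Zeta enzymes isomerise maleylacetoacetate in tyrosine breakdown, and the Sigma enzyme GstS1 conjugates the lipid aldehyde 4-hydroxynonenal and is abundant in flight muscle.

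Libraries held 14201662 to 26217144 counts, and 9004 genes had enough counts to be tested with edgeR's quasi-likelihood test, with Benjamini-Hochberg adjustment over all of them. Levels are CPM, counts scaled to the library total and composition, and adjusted p-values under 0.05 are called. Markers of the wing disc epithelium summed to 3182 to 4440 CPM in all 18 libraries. Markers of other tissues stood high in single libraries: the 10 salivary gland markers summed to 6131 CPM in control replicate 3, against 264.1 CPM or less in the other 17 libraries, and the 13 hemocyte markers to 2576 CPM in cic wts day 5 replicate 1, against 1251 CPM or less elsewhere. The differentiated muscle markers summed to 1134 CPM in control replicate 2, against 497.5 CPM or less elsewhere. In cic wts day 5 replicate 2 the fat body markers summed to 901.8 CPM, against 579.9 CPM or less elsewhere. These libraries were left out only 1 at a time. Each called Gst result below was also computed without both control replicate 3 and cic wts day 5 replicate 1, named below as rich in transcripts of other tissues. The text gives that value where the call ended.

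Of the 35 genes, 25 were expressed at a mean of at least 1 CPM in at least 1 group and 19 at 5 CPM or more. For 26 the counts sufficed for testing, 2 of them, GstE2 and GstD2, only through their cic libraries, so that their differences from cic discs were in part fixed by the filter. The 9 left out were GstD4, GstD5, GstD6, GstD7, GstD8, GstD11, GstE4, GstE10 and GstE14. GstD8 had 0 counts in every library, where 3 counts would have been 0.114 to 0.211 CPM. GstE14, which acts in ecdysone synthesis in the prothoracic gland, had 9 counts in cic wts day 5 replicate 1 and at most 1 in any other library. The 7 prothoracic gland markers summed to 30.4 CPM in that library and to at most 16.3 CPM in the others.

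GstD1, the Delta enzyme known for detoxifying DDT and widely used as an oxidative stress reporter, and GstS1 together held 62% to 66.9% of the family's counts in every library, a share not corrected for gene length. Per kilobase of annotated gene, introns included, the group means of GstD1 ranged from 500.4 to 581.6 CPM per kb, above every other member. GstS1 ranged from 69.1 to 100.7 CPM per kb, GstO3 from 65.5 to 99.4 and GstE12 from 64.6 to 88.2. The summed level of all 35 genes differed little between groups: 1883 ± 92.5 CPM in cic wts and 2066 ± 190.5 CPM in wts libraries of day 9, and 2004 ± 99.7 CPM in cic wts, 2074 ± 30.4 CPM in wts, 2166 ± 75.6 CPM in cic and 2041 ± 14.1 CPM in control libraries of day 5 (SD, n = 3 each). Taken in order of the mean, each group's range overlapped the next. The cic libraries, from 2101 to 2249 CPM, lay above the control libraries, from 2026 to 2054 CPM, and those of cic wts at day 9, from 1810 to 1987 CPM, lay below them.

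**Figure D1:**
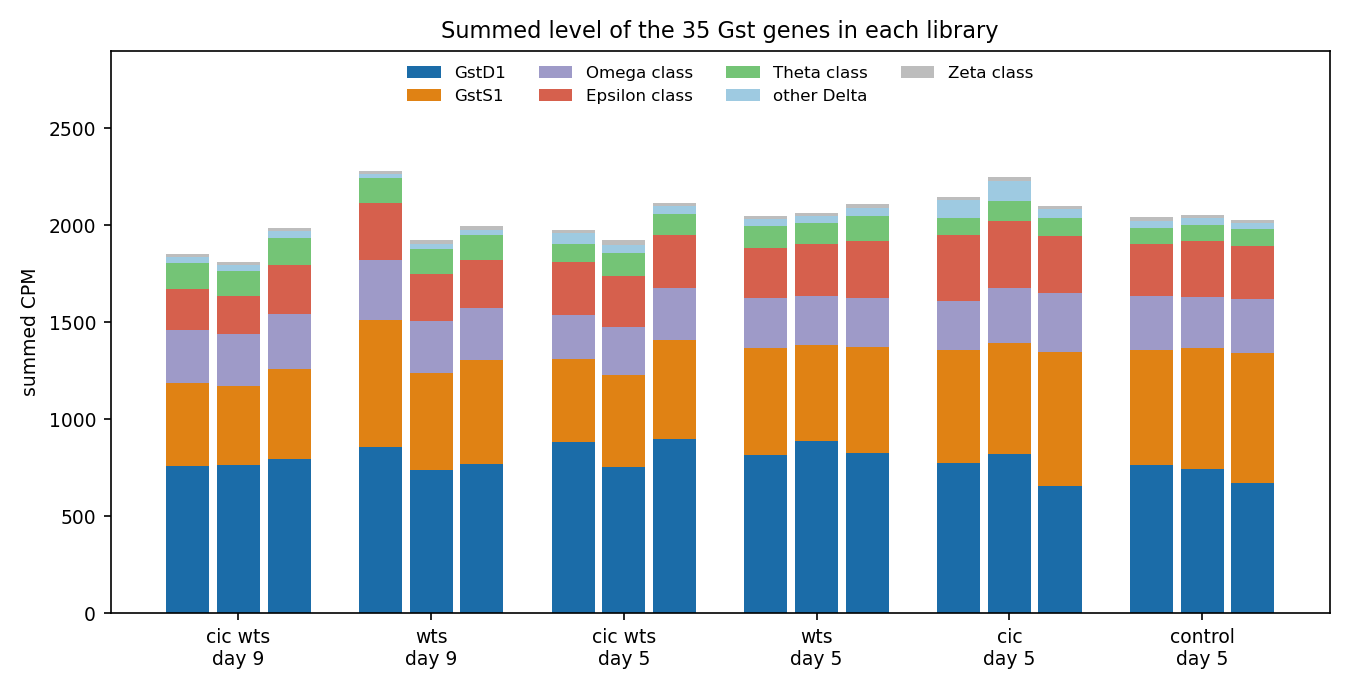
Summed level (CPM) of the 35 Gst genes in each library, 3 bars for each group, stacked by gene or class. GstD1 and GstS1 hold between 62% and 66.9% of each bar, and no bar is below 1810 or above 2282 CPM.

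The family is clustered in the genome (release 6, dm6 coordinates; the genes' own spans, exons and introns together). All 11 Delta genes lie on 3R between 12364776 and 12385624, and 10 of the 14 Epsilon genes, GstE1 to GstE10, lie on 2R between 18396638 and 18409835. The 3 Omega genes lie together on 3L, both Zeta genes together on 3R, and GstT3 and GstT4 on the X. The Delta and Zeta genes thus share a chromosome arm with cic, wts and the recombination site, where linked alleles differ between the groups' chromosomes; the part of such alleles in their levels was not tested. Genes within a cluster are close paralogs. The sources used here do not say how reads matching several copies were counted, nor whether strand was used, so the division of reads among neighbours is uncertain. Another annotated gene overlaps 7 members, among them GstE1 with GstE10 (127 bases) and GstE9 with the immune gene imd (40 bases).

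The first comparison, of cic with control discs (day 5), asks what loss of cic does where wts is intact. Of the 26 tested members 4 rose and 0 fell. Over all 9004 genes, 0.955% rose and 0.677% fell in this comparison. The genes called were GstE6, GstE1, GstD3 and GstT1. The median log2 fold change was 0.17 over the 26 members, 0.14 without GstE2 and GstD2, and -0.0035 over all genes. An unadjusted edgeR p under 0.05 was reached by 11 members. Among them were GstE2 and members with folds below 0, GstE12 (-0.19), GstE13 (-0.25) and GstT3 (-0.30). The share of all genes under that p was not taken, here or in the comparisons below.

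GstE6, of the Epsilon cluster (FBgn0063494), measured 44.4, 50.7 and 19.45 CPM in cic discs, against 8.1, 10.6 and 4.13 CPM in controls. Every cic library lay above every control. The log2 fold change was 2.32 ± 0.38 (standard error; edgeR adjusted p = 0.0041). GstD3, of the Delta cluster, measured 42.3, 52.8 and 18.55 CPM in cic discs, against 2.19, 3.95 and 12.1 CPM in controls. The groups did not overlap, and the log2 fold change was 2.65 ± 0.50 (edgeR adjusted p = 0.011). Without the 2 libraries rich in transcripts of other tissues it was still called, at 3.62. These were the 2 members with the largest called folds.

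GstE1 measured 70.8, 46.1 and 24.2 CPM in cic discs, against 24.8, 23.9 and 16.2 CPM in controls. Its lowest cic library, replicate 3, was inside the control range, and the log2 fold change was 1.12 ± 0.26 (edgeR adjusted p = 0.043). GstT1, a Theta enzyme outside both clusters, measured 50.5, 68.8 and 57.1 CPM in cic discs, against 44.1, 38.5 and 45.2 CPM in controls. Its change was small but without overlap, a log2 fold change of 0.46 ± 0.10 (edgeR adjusted p = 0.026).

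GstE2 measured 5.74, 3.95 and 1.3 CPM in cic discs, against 0.233, 0.71 and 0.0529 CPM in controls, values given as a description because the cic libraries let it into the test. Leaving GstE2 and GstD2 aside, the other 7 tested genes of the Epsilon cluster had folds above 0, with a median of 0.85, and so did the other 4 of the Delta cluster, with a median of 0.67. Of these 11 genes 3 were called. GstD1 (0.05 ± 0.09), GstE9 (0.13 ± 0.40) and GstD10 (0.70 ± 0.71) lay within a standard error of 0. Reads may be divided among these neighbours, so their signs may not be independent. The 3 Epsilon genes outside the cluster were at 0.18 (GstE11), -0.19 (GstE12) and -0.25 (GstE13), none called. Counts too low to test were higher in every cic library in GstD4, with 16, 9 and 3 counts in cic discs against 0, 0 and 2 in controls, and in GstE4, with 14, 9 and 5 counts against 3, 3 and 0. The other untested cluster genes did not show this. GstD5 (10, 4 and 1 counts against 3, 2 and 0) and GstD6 (5, 0 and 4 against 1, 0 and 0) overlapped. GstD7 had 0, 0 and 0 counts in cic discs against 0, 2 and 0 in controls. GstD8, GstD11 and GstE10 had at most 3 counts in any library. The abundant members were not called: GstD1 averaged 749.6 ± 82.5 CPM in cic and 726.5 ± 49.3 CPM in control discs, and GstS1 averaged 616.5 ± 61.4 CPM in cic and 629.6 ± 39.4 CPM in control discs (SD, n = 3 each). Their log2 fold changes were 0.05 ± 0.09 and -0.03 ± 0.10 (edgeR adjusted p = 0.91 and 0.95).

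The libraries of each group differed among themselves. Replicate 3 of cic was the lowest of its group in 12 of the 13 tested cluster genes, and replicate 3 of the control, the library with salivary transcripts, in 11 of 13. The 10 genes of the Epsilon cluster together measured 148.6, 126.1 and 60.8 CPM in cic discs, against 48.8, 53.1 and 31.9 CPM in controls.

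**Figure D2:**
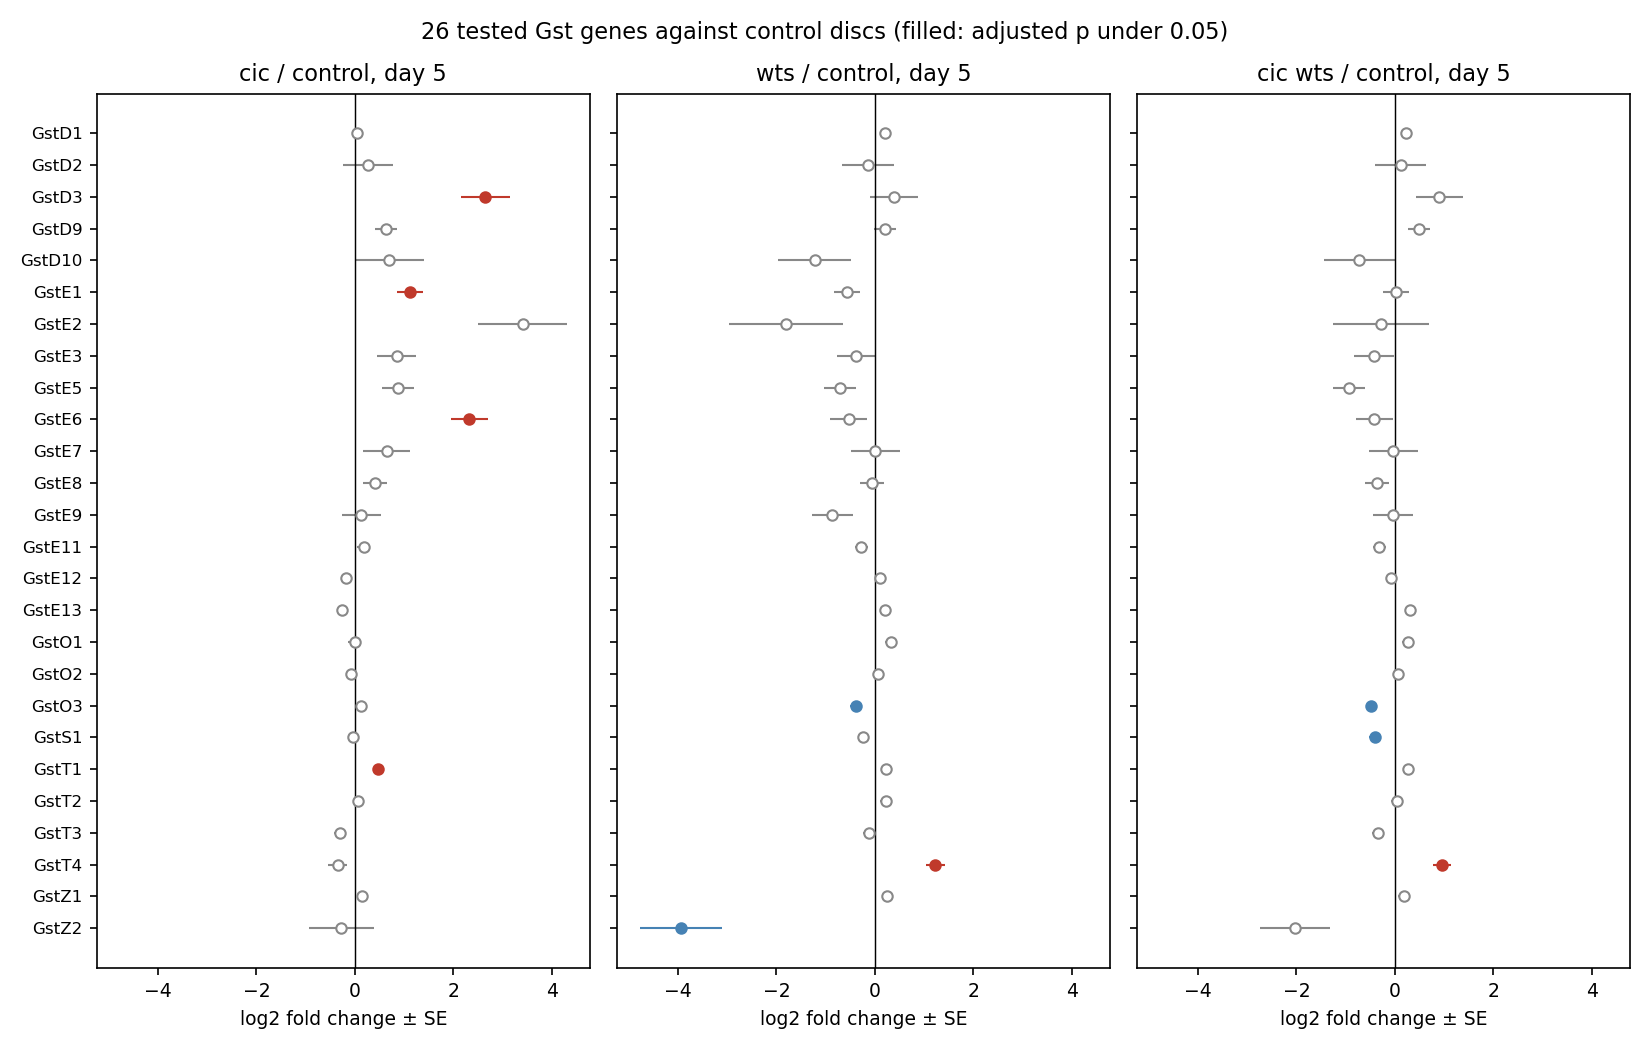
Log2 fold change against control discs at day 5 for the 26 tested Gst genes, with standard errors, in cic, wts and cic wts discs from left to right; filled points have an adjusted p under 0.05. GstE6 (2.32) and GstD3 (2.65) stand out in cic discs, and GstT4 (1.23 in wts, 0.95 in cic wts) in the discs without wts. The 3 panels share the control libraries.

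With only the 6 libraries compared in the fit, which estimates the spread from those alone, none of the 4 genes was called (edgeR adjusted p = 0.23 for GstE6, 0.38 for GstD3, 0.53 for GstE1 and 0.41 for GstT1); over all genes that fit made 19 calls. The GstE6 call held without any 1 of the 6 libraries (log2 fold change 2.03 to 2.64), that of GstD3 ended without control replicate 2 or without cic replicate 2, that of GstT1 ended without control replicate 1 or 2 or cic replicate 2, and that of GstE1 held only without cic replicate 3 (1.43, edgeR adjusted p = 0.00053) and stood at 0.70 without cic replicate 1. GstE1 was also lost without both libraries rich in transcripts of other tissues (0.95, edgeR adjusted p = 0.14). The level of the male-specific RNAs roX1 and roX2, summed, was 116.4 to 423 CPM in cic and 236.7 to 605 CPM in control libraries; with that level as a covariate only GstE6 was still called.

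Genes of related pathways were read beside the family. CG6272, which encodes the bZIP partner of Xrp1, measured 33.8, 48.3 and 26.6 CPM in cic discs, against 19.5, 18.3 and 17.1 CPM in controls, and rose by 0.99 ± 0.17 (edgeR adjusted p = 0.0057). Xrp1 itself measured 1247, 1029 and 697 CPM in cic discs, against 674, 902 and 529 CPM in controls, which overlapped (0.50 ± 0.19, edgeR adjusted p = 0.32). In the list of Xrp1 and Minute response genes 3 of 14 tested rose and 0 fell, CG6272, the DNA damage response gene Gadd45 (0.91 ± 0.20, edgeR adjusted p = 0.033) and the caspase gene Dronc (0.65 ± 0.12, edgeR adjusted p = 0.008). Of 6 tested UDP-glycosyltransferases, enzymes that attach sugars to foreign compounds, 2 rose (Ugt86Di by 1.13 and Ugt86Da by 0.48). Of 21 tested cytochrome P450 genes 1 rose, Cyp6d2 (2.08 ± 0.32, edgeR adjusted p = 0.003). None of the 8 tested genes of glutathione synthesis and recycling, 14 antioxidant enzymes, 3 other glutathione-binding genes and 7 regulators of the oxidative stress response was called; cnc was at -0.15 ± 0.06 (edgeR adjusted p = 0.4) and Keap1 at 0.06 ± 0.15 (edgeR adjusted p = 0.94). With only the 6 libraries compared none of these 6 genes was called (CG6272 at edgeR adjusted p = 0.27 and Cyp6d2 at 0.24). Gadd45 and Ugt86Da were each lost in 5 of 6 fits that left out 1 library. Ugt86Da was also lost without both libraries rich in other tissues (0.50, edgeR adjusted p = 0.1) and with scaling by RLE (edgeR adjusted p = 0.054). The same held with the replicate block (edgeR adjusted p = 0.073) and with the roX covariate (edgeR adjusted p = 0.13).

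Loss of cic was then compared in discs that also lacked wts. Between cic wts and wts discs of day 5, 0 of 26 members rose and 0 fell, where 1.04% of all genes rose and 1.87% fell; 3 members had an unadjusted p under 0.05, and DESeq2 also called 0. GstE6 measured 7.77, 5.14 and 4.27 CPM in cic wts discs, against 3.43, 6.23 and 6.22 CPM in wts discs, which overlapped (0.11 ± 0.38, edgeR adjusted p = 0.93). GstD3 measured 16.1, 8.82 and 8.97 CPM in cic wts discs, against 7.23, 6.38 and 9.95 CPM in wts discs, also overlapping (0.52 ± 0.48, edgeR adjusted p = 0.69). GstE1 lay higher in every cic wts library, from 20.4 to 24.4 CPM against 14.2 to 15.5 CPM in wts discs, without passing the test (0.58 ± 0.27, edgeR adjusted p = 0.31); with only the 6 libraries compared it passed (0.60, edgeR adjusted p = 0.032).

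The difference between these effects, cic wts over wts against cic over control, was tested as an interaction. Of 26 members 0 had a positive and 1 a negative interaction, where 0.744% and 1.2% of all genes did. That member was GstE6, with an interaction of -2.21 ± 0.53 on the log2 scale (edgeR adjusted p = 0.046). GstD3 was at -2.14 ± 0.68 (edgeR adjusted p = 0.14) and GstE1 at -0.54 ± 0.37 (edgeR adjusted p = 0.56), so for these a difference between the 2 backgrounds was not shown. Without the 2 libraries rich in transcripts of other tissues, control replicate 3 and cic wts replicate 1, the GstD3 interaction was called, at -3.44 (edgeR adjusted p = 0.0046). The GstE6 interaction was lost in 8 of 12 fits that left out 1 library, and its value stayed between -2.53 and -1.92 in all 12. It was also lost with only the 12 day 5 libraries in the fit (edgeR adjusted p = 0.13) and with the roX covariate (-1.87, edgeR adjusted p = 0.072). Among the related lists, hid and Dronc had called interactions (-1.44 ± 0.27 and -0.81 ± 0.16, edgeR adjusted p = 0.013 and 0.017), as did Cyp6d2 (-2.32 ± 0.44, edgeR adjusted p = 0.014). With only the 12 day 5 libraries Dronc and Cyp6d2 were not called (edgeR adjusted p = 0.055 for each), and Cyp6d2 was not called without the 2 libraries rich in other tissues (-2.07, edgeR adjusted p = 0.053).

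**Figure D3:**
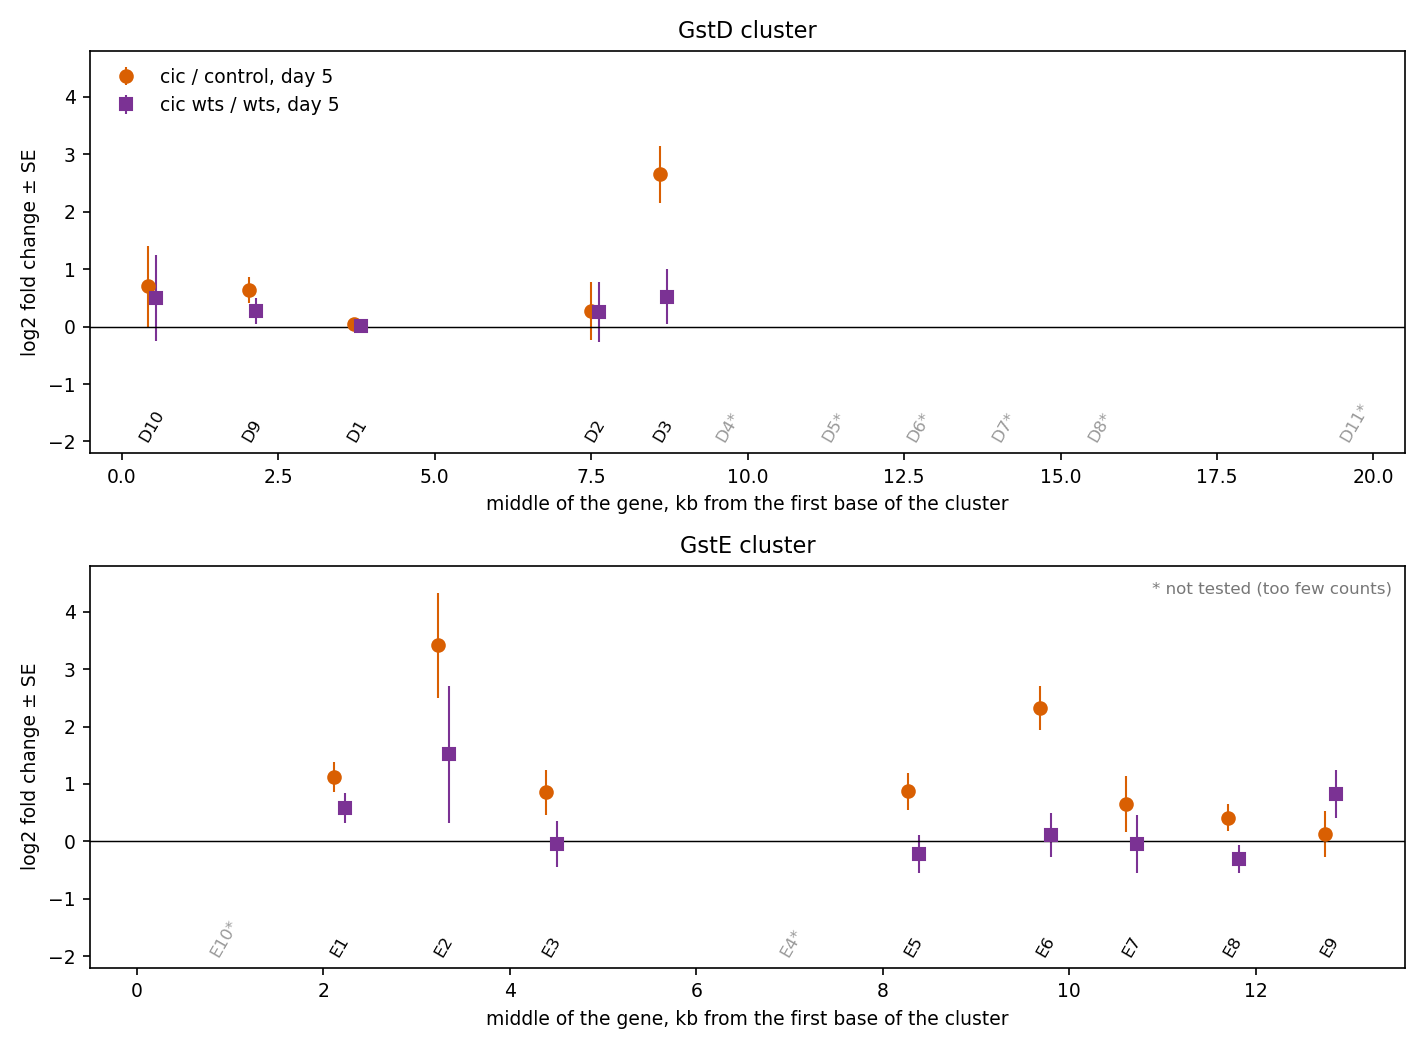
Log2 fold change for loss of cic, with standard errors, of the genes of the GstD (top) and GstE (bottom) clusters, placed by the distance of each gene's middle from the first base of its cluster. Circles are cic over control discs and squares cic wts over wts discs, both at day 5; a star marks genes with too few counts to test. GstE2 (3.41) and GstD2 (0.27) were let into the test by their cic libraries; of the other circles GstD3 (2.65) and GstE6 (2.32) are highest, and no square was called.

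The next comparison, of wts with control discs (day 5), concerns loss of wts. In it 1 member rose and 2 fell, where 10% of all 9004 genes rose and 8.16% fell. The median log2 fold change of the 26 members was -0.09. GstT4, a Theta gene on the X (13404749 to 13409323), measured 44.3, 33.5 and 54.3 CPM in wts discs, against 14.9, 21.8 and 19.6 CPM in controls. No wts library came near the controls, and GstT4 rose by 1.23 ± 0.19 (edgeR adjusted p = 0.00051). GstO3, an Omega gene, measured 97.5, 106.2 and 92 CPM in wts discs, against 129.6, 120.5 and 135.8 CPM in controls. It fell by 0.39 (standard error 0.12, edgeR adjusted p = 0.036), a call lost without the 2 libraries rich in transcripts of other tissues (-0.34, edgeR adjusted p = 0.073). It was also lost without control replicate 1 or 3 and without wts replicate 1 or 3, at -0.44 to -0.34 over all such fits. GstD3, not called here (0.39 ± 0.49, edgeR adjusted p = 0.61), was called without those 2 libraries (1.36, edgeR adjusted p = 0.032).

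GstZ2 was a low-count member: its libraries had 5, 0 and 3 counts in wts discs, against 61, 34 and 52 in controls. It fell to 0 to 0.26 CPM in wts discs, against 1.51 to 2.84 CPM in controls (edgeR adjusted p = 0.0045), and the call held without any 1 library. Its neighbour GstZ1 was at 16.8 to 20.7 CPM in wts discs, against 13.5 to 17.2 CPM in controls, and was not called. In the other groups without wts GstZ2 had 9, 8 and 8 counts (cic wts, day 9), 3, 3 and 4 counts (wts, day 9) and 4, 27 and 2 counts (cic wts, day 5), so that 1 cic wts library, replicate 2 of day 5, lay well above the rest. That library's fat body markers summed to 901.8 CPM, against 147.4 and 158.3 CPM in the other cic wts libraries of day 5; their part was not tested. GstZ2 was at -2.03 ± 0.71 in cic wts over control discs (edgeR adjusted p = 0.052), and without that library it was called against control (-4.06, edgeR adjusted p = 0.00082) and against cic discs (-3.78, edgeR adjusted p = 0.00079). In cic discs it had 39, 40 and 45 counts.

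Among the related pathways, 3 of 14 antioxidant enzymes rose in wts discs, among them the thioredoxin gene Trx-2 (0.37 ± 0.08, edgeR adjusted p = 0.0076) and the peroxiredoxin gene Prx2540-1 (1.29 ± 0.36, edgeR adjusted p = 0.023). Of 7 regulators of the oxidative stress response 2 rose, maf-S, which encodes the DNA-binding partner of CncC (0.39 ± 0.10, edgeR adjusted p = 0.013), and crc, the fly ATF4 gene (0.59 ± 0.08, edgeR adjusted p = 0.00017). Keap1 was at -0.38 ± 0.16 (edgeR adjusted p = 0.1) and cnc at 0.17 ± 0.06 (edgeR adjusted p = 0.075). In the Xrp1 and Minute response list 1 of 14 rose and 2 fell, with Gadd45 at -1.12 ± 0.21 (edgeR adjusted p = 0.0021); Xrp1 and CG6272 were not called (-0.11 ± 0.19 and 0.16 ± 0.17). Cytochrome P450 genes split into 4 that rose and 2 that fell of 21, and UDP-glycosyltransferases into 2 and 1 of 6, led by Ugt35a (2.00 ± 0.25, edgeR adjusted p = 0.00011). None of the 8 glutathione synthesis and recycling genes was called. Without both libraries rich in other tissues the calls of Prx2540-1, maf-S and Dronc were lost (edgeR adjusted p = 0.082, 0.051 and 0.11). So was that of the remaining antioxidant gene, the copper chaperone gene Ccs (0.27, edgeR adjusted p = 0.11), which leaves Trx-2 of the 3. Ccs also lost its call with DESeq2, with either other scaling and without any 1 of the 6 libraries. The Trx-2 call was lost with only the 6 libraries compared (edgeR adjusted p = 0.064) and without wts replicate 3 (0.27, edgeR adjusted p = 0.06).

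Loss of both genes, cic wts with control discs (day 5), again showed 1 member that rose and 2 that fell, where 11.3% of all genes rose and 11.2% fell. GstT4 measured 26.6, 44.5 and 38.3 CPM in cic wts discs and rose by 0.95 ± 0.19 (edgeR adjusted p = 0.0021). GstO3 measured 78.9, 93.7 and 104.5 CPM in cic wts discs, below every control, and fell by 0.48 (standard error 0.12, edgeR adjusted p = 0.0094). GstS1 measured 431, 474.9 and 512 CPM in cic wts discs, against 592.8, 625.1 and 671.1 CPM in controls, and fell by 0.41 (standard error 0.10, edgeR adjusted p = 0.0093). GstD3, at 0.90 ± 0.48 (edgeR adjusted p = 0.2), was called without the libraries rich in other tissues (1.53, edgeR adjusted p = 0.021). This comparison shares its controls with the one before.

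Both falls were smaller without the 2 libraries rich in transcripts of other tissues, and neither was then called (GstO3 -0.33, edgeR adjusted p = 0.094; GstS1 -0.30, edgeR adjusted p = 0.097). GstT4 was called in every alternative tried in both comparisons. Markers of adult muscle progenitors, which sit under the notum part of the disc, summed to 262.3 to 289.5 CPM in cic wts discs, against 520.1 to 550.2 CPM in controls, and 7 of 8 fell. Markers of differentiated muscle summed to 208 to 358.2 CPM in cic wts discs, against 344.8 to 1134 CPM in controls, and 8 of 12 fell. The part of either in the GstS1 fall was not tested. In such whole-disc samples fewer cells of a type and less RNA per cell cannot be told apart.

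**Figure D4:**
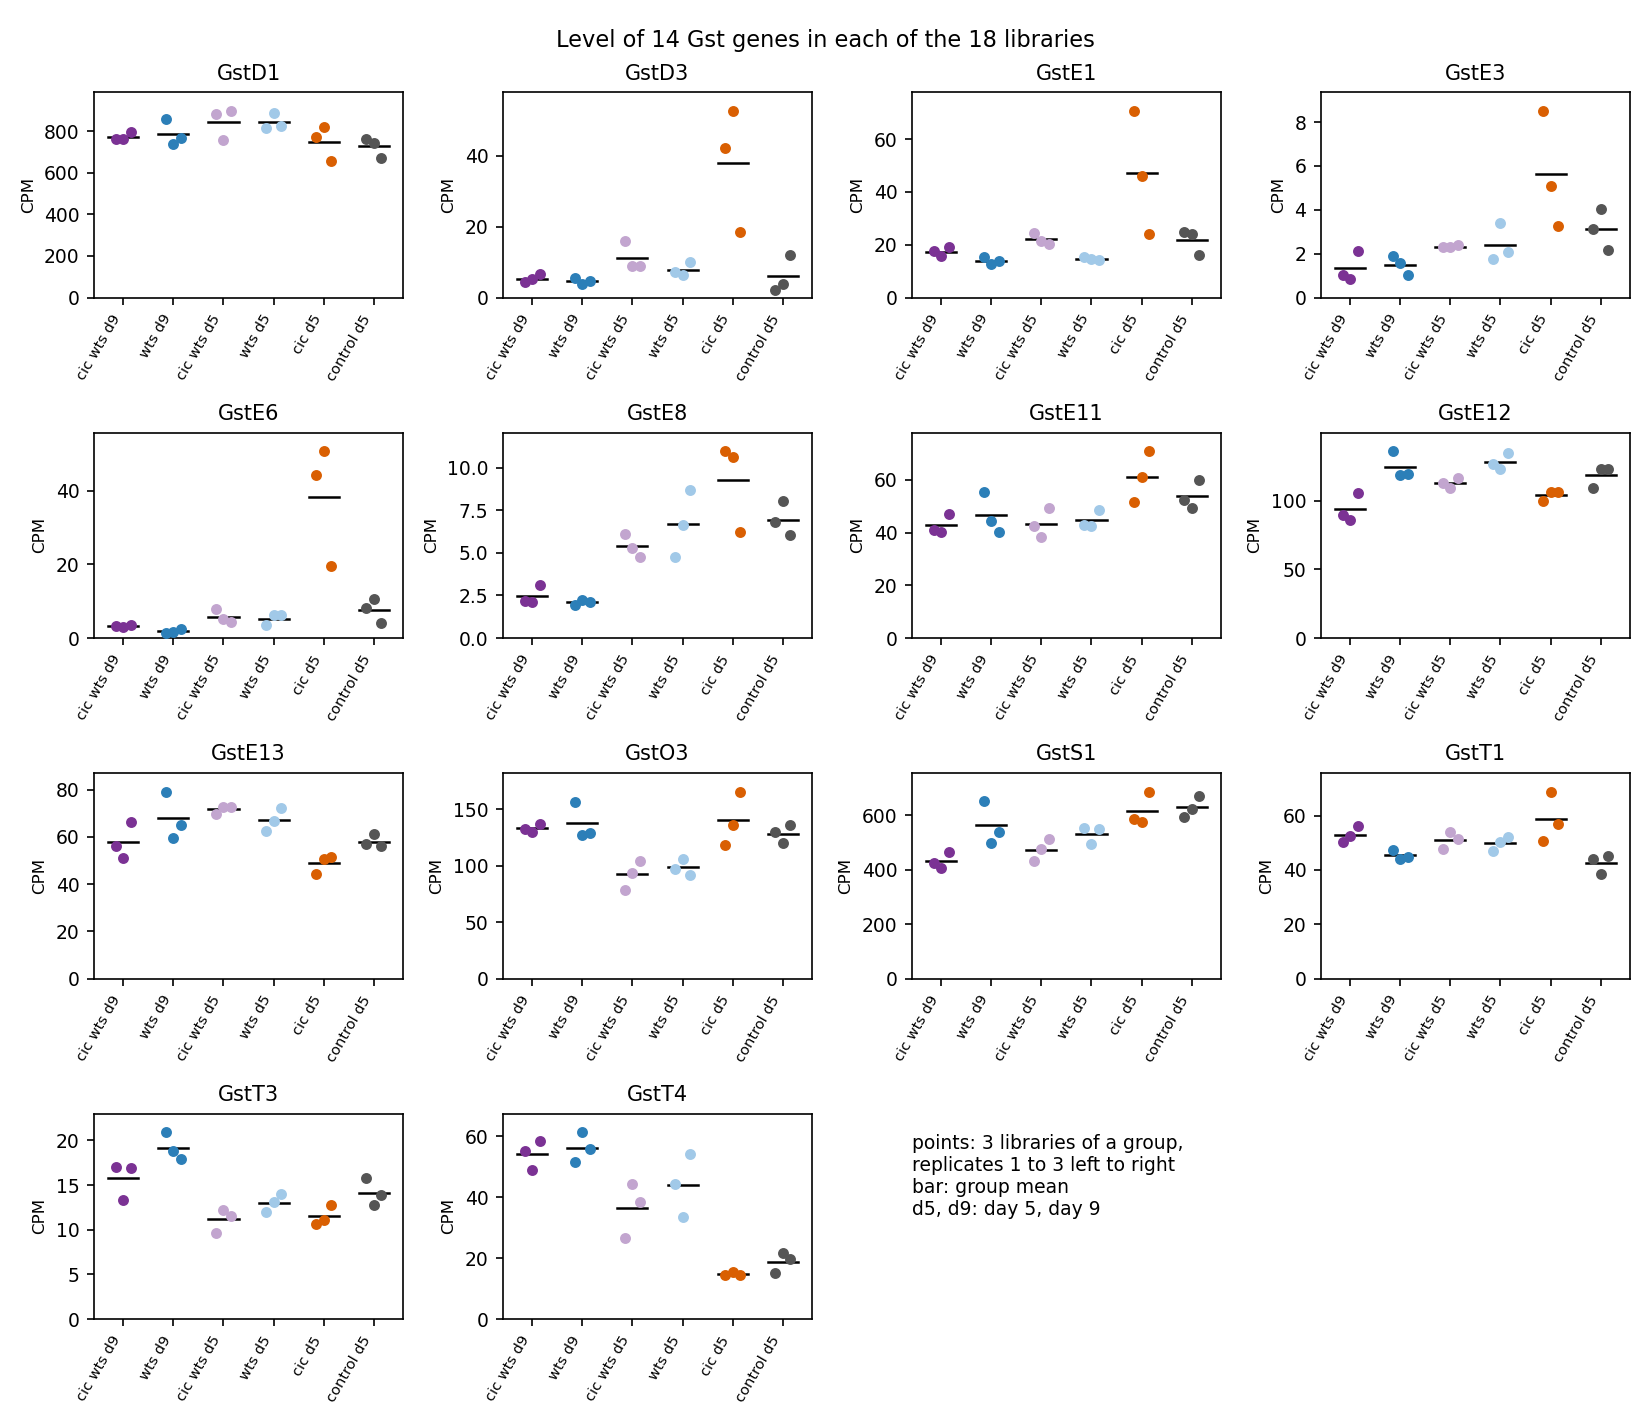
Level (CPM, axes from 0) of 14 Gst genes in all 18 libraries; points are libraries, bars group means of 3. GstE6 and GstD3 are highest in the cic libraries, with replicate 3 at 19.45 and 18.55 CPM; GstT4 lies between 26.6 and 61.4 CPM in the 12 libraries without wts and between 14.3 and 21.8 CPM in the 6 others.

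The effect of losing wts in discs without cic was compared directly, in cic wts against cic discs at day 5, a comparison added after the values had been seen. In it 2 of 26 members rose and 10 fell, where 15% of all genes rose and 14.2% fell, and the median log2 fold change was -0.29 over the members and 0.0062 over all genes. These counts include GstE2, which only its cic libraries let into the test; without it and GstD2, 9 of 24 fell. Of the other 7 tested genes of the Epsilon cluster 5 fell: GstE6 by 2.74 (edgeR adjusted p = 8e-05), GstE5 by 1.81 (edgeR adjusted p = 0.00077), GstE3 by 1.28 (edgeR adjusted p = 0.025), GstE1 by 1.09 (edgeR adjusted p = 0.0051) and GstE8 by 0.78 (edgeR adjusted p = 0.024). GstE7 and GstE9 were at -0.68 and -0.17 and not called. The cic libraries here are those of the comparison of cic with control discs, so these falls are not independent of the rises there. In cic wts against control discs 0 of the 7 genes was called, with a median log2 fold change of -0.37. GstE5 lay below every control there (-0.93 ± 0.33, edgeR adjusted p = 0.055). It was called with total-count scaling (edgeR adjusted p = 0.046) and with DESeq2 (DESeq2 adjusted p = 0.033). The libraries of GstE6 held 7.77, 5.14 and 4.27 CPM in cic wts discs, against 44.4, 50.7 and 19.45 CPM in cic discs, and the 2 sets lay far apart. GstE1 overlapped, with 24.4, 21.3 and 20.4 CPM in cic wts discs against 70.8, 46.1 and 24.2 CPM in cic discs. GstE3 held 2.29, 2.29 and 2.39 CPM in cic wts discs, against 8.52, 5.10 and 3.26 CPM in cic discs, apart by less than 1 CPM at the nearest pair. GstE8 held 6.09, 5.30 and 4.78 CPM in cic wts discs, against 11, 10.7 and 6.22 CPM in cic discs, where the lowest cic library came close to the highest of cic wts.

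Outside the Epsilon cluster GstD3 fell by 1.75 (edgeR adjusted p = 0.011), GstO3 by 0.60 (edgeR adjusted p = 0.0013), GstE11 by 0.50 (edgeR adjusted p = 0.012) and GstS1 by 0.38 (edgeR adjusted p = 0.01). GstE11 measured 42.4, 38.2 and 49.4 CPM in cic wts discs, against 51.7, 61.2 and 70.9 CPM in cic discs. GstO3 measured 78.9, 93.7 and 104.5 CPM in cic wts discs, against 118.7, 136.4 and 165.8 CPM in cic discs, and GstS1 was below every cic library in each of cic wts. GstT4, at 26.6, 44.5 and 38.3 CPM in cic wts discs against 14.6, 15.4 and 14.3 CPM in cic discs, rose by 1.30 ± 0.19 (edgeR adjusted p = 0.00011). GstE13 rose by 0.55 ± 0.11 (edgeR adjusted p = 0.0012), with 69.6, 72.5 and 72.7 CPM in cic wts discs against 44.1, 50.6 and 51.6 CPM in cic discs.

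Levels of other cell groups moved in this comparison too. The roX RNAs summed to 449.4 to 1112 CPM in cic wts discs and 116.4 to 423 CPM in cic discs, and both roX1 and roX2 rose. With the roX level as a covariate 6 members were called, GstE6 (-1.94), GstT4, GstE13, GstO3 and GstS1 among them, while GstE1 (-0.67, edgeR adjusted p = 0.24), GstE3, GstE5, GstE8, GstE11 and GstD3 were not. That fit took the roX effect from the spread within groups over all 18 libraries. The roX levels of the 2 groups did not overlap, so its values compare them at a level they did not share. Leaving out single libraries ended the calls of GstE3 and GstE8 in 4 of 6 fits each, of GstD3 and GstE11 in 2 and of GstS1 in 1 (without cic replicate 3, -0.30, edgeR adjusted p = 0.061). With only the 6 libraries compared GstE1, GstE3 and GstE8 were not called (edgeR adjusted p = 0.07, 0.052 and 0.075), and GstE3 was not called without both libraries rich in other tissues either (-1.26, edgeR adjusted p = 0.053). Of 8 muscle progenitor markers 7 fell here as well, and of 12 tested hemocyte markers 5 rose and 1 fell. The hemocyte markers summed to 2576, 444.1 and 577.6 CPM in cic wts discs, against 1081, 990.3 and 1182 CPM in cic discs. Only replicate 1 of cic wts thus lay above the cic libraries, and the others lay below them. The part of either marker list in the Gst values was not tested.

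In the same comparison 5 of 14 Xrp1 and Minute response genes fell and 0 rose, among them Dronc (-1.23 ± 0.12, edgeR adjusted p = 2.6e-06), hid, an inducer of apoptosis (-1.33 ± 0.19, edgeR adjusted p = 0.00011), Gadd45 (-1.39 ± 0.21, edgeR adjusted p = 0.00014) and CG6272 (-0.69 ± 0.17, edgeR adjusted p = 0.0054); Xrp1 was at -0.47 ± 0.19 (edgeR adjusted p = 0.08). Of the 8 glutathione synthesis and recycling genes 2 fell, the gamma-glutamyl transpeptidase gene CG4829 (-1.04 ± 0.23, edgeR adjusted p = 0.0035) and Gclc, the catalytic subunit of the rate-limiting enzyme (-0.74 ± 0.19, edgeR adjusted p = 0.0078). The antioxidant enzymes split into 3 that rose and 3 that fell of 14, with catalase (Cat) at -0.70 ± 0.16 (edgeR adjusted p = 0.0045). With only the 6 libraries compared CG4829, Gclc and CG6272 were not called (edgeR adjusted p = 0.06, 0.068 and 0.067), nor were they with the roX covariate (edgeR adjusted p = 0.09, 0.1 and 0.25). Without both libraries rich in other tissues Xrp1 was called (-0.56, edgeR adjusted p = 0.042).

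At day 9, cic wts against wts discs, 0 of 26 members rose and 2 fell, where 2.89% of all genes rose and 4.01% fell. GstE6 lay higher in every cic wts library, from 3.05 to 3.48 CPM against 1.275 to 2.41 CPM in wts discs. It was not called (0.88 ± 0.42, edgeR adjusted p = 0.26). GstE12, an Epsilon gene away from the cluster, measured 90, 86 and 106 CPM in cic wts discs, against 136.2, 118.8 and 119.7 CPM in wts discs, without overlap. It fell by 0.41 (standard error 0.08, edgeR adjusted p = 0.0045) and was called in every alternative. GstS1 measured 425.3, 407.1 and 464.7 CPM in cic wts discs, against 652.7, 499.8 and 537.5 CPM in wts discs, and fell by 0.38 (standard error 0.10, edgeR adjusted p = 0.035). That call was lost without wts replicate 1 or 3 or cic wts replicate 1 or 2; the value without wts replicate 1 was -0.26 (edgeR adjusted p = 0.18). It was also lost with only the 6 libraries compared (edgeR adjusted p = 0.056) and with the roX covariate (edgeR adjusted p = 0.088). Muscle progenitor markers summed to 336.2 to 433.6 CPM in cic wts discs, against 503.6 to 553.2 CPM in wts discs, and 4 of 8 fell; their part in the GstS1 value was not tested. In the Xrp1 and Minute response list 3 of 14 tested genes rose and 0 fell. Its genes summed to 2003 to 2242 CPM in cic wts discs, against 1536 to 1604 CPM in wts discs. Of these calls, upd3 and Gadd45 were lost with the roX covariate (edgeR adjusted p = 0.081 and 0.052). Of the regulators of the oxidative stress response 1 of 7 fell, and of the cytochrome P450 genes 1 of 21. Whether the effect of cic differed between the days was tested as an interaction, which called 0 members in either direction, as it did over all genes (0%). In that test 1 member had an unadjusted p under 0.05, and DESeq2 also called 0.

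Between day 5 and day 9, discs without wts go on growing. In wts discs 2 members rose and 3 fell at day 9 against day 5, where 4.19% of all genes rose and 2.7% fell. In cic wts discs 2 members also rose and 3 fell, where 6.06% and 4.54% of all genes did. The median log2 fold change of the 26 members was -0.12 in wts discs and -0.29 in cic wts discs, against -0.016 and -0.011 over all genes. The 7 Epsilon cluster genes other than GstE2 had folds below 0 in both genotypes, 3 of them called in wts and 2 in cic wts discs. The 4 tested Delta cluster genes other than GstD2 also had folds below 0 in both genotypes, with a median of -0.62 in each and 0 called. In wts discs GstE1 (-0.08 ± 0.27) and GstD10 (-0.70 ± 0.79) lay within a standard error of 0.

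GstE8 fell in both. In wts discs it measured 1.91, 2.24 and 2.12 CPM at day 9, against 4.74, 6.66 and 8.70 CPM at day 5, and fell by 1.68 (standard error 0.26, edgeR adjusted p = 0.0021). In cic wts discs it measured 2.18, 2.11 and 3.12 CPM at day 9, against 6.09, 5.30 and 4.78 CPM at day 5, and fell by 1.13 (standard error 0.25, edgeR adjusted p = 0.013). The days did not overlap in either genotype. GstE6 fell by 1.56 (standard error 0.42, edgeR adjusted p = 0.037) in wts discs, with 1.27, 1.66 and 2.41 CPM at day 9 against 3.43, 6.23 and 6.22 CPM at day 5. GstE7 fell by 1.97 in wts discs (edgeR adjusted p = 0.048), with 2 to 6 counts per library at day 9 against 10 to 20 at day 5. GstE9 fell by 1.63 in cic wts discs (edgeR adjusted p = 0.029), with 8 to 12 counts at day 9 against 19 to 40 at day 5. GstE12, in cic wts discs, measured 90, 86 and 106 CPM at day 9, against 113.2, 109.3 and 116.5 CPM at day 5, and fell by 0.27 without overlap (edgeR adjusted p = 0.043), and was not called without the 2 libraries rich in other tissues (-0.27, edgeR adjusted p = 0.12). A fall called in 1 genotype was not shown to differ from the other, since no member had a called interaction of cic with day.

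GstO3 and GstT3 rose at day 9 in both genotypes. GstO3 measured 156.3, 127.7 and 129.3 CPM in wts discs at day 9, against 97.5, 106.2 and 92 CPM at day 5, and rose by 0.48 ± 0.12 (edgeR adjusted p = 0.026). In cic wts discs it measured 132.3, 130.1 and 137.4 CPM at day 9, against 78.9, 93.7 and 104.5 CPM at day 5, and rose by 0.53 ± 0.12 (edgeR adjusted p = 0.013). The day 9 levels thus lay within or near the range of the day 5 controls, 120.5 to 135.8 CPM, a difference of age and genotype that was not tested. GstT3, a Theta gene on the X, measured 20.9, 18.8 and 17.9 CPM in wts discs at day 9, against 12, 13.1 and 14 CPM at day 5, and rose by 0.56 ± 0.13 (edgeR adjusted p = 0.018). In cic wts discs GstT3 rose by 0.50 ± 0.13 (edgeR adjusted p = 0.023), with 17, 13.3 and 16.9 CPM at day 9 against 9.65, 12.2 and 11.6 CPM at day 5. GstT4 was at 0.35 ± 0.18 in wts and 0.57 ± 0.18 in cic wts discs, not called (edgeR adjusted p = 0.25 and 0.058).

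**Figure D5:**
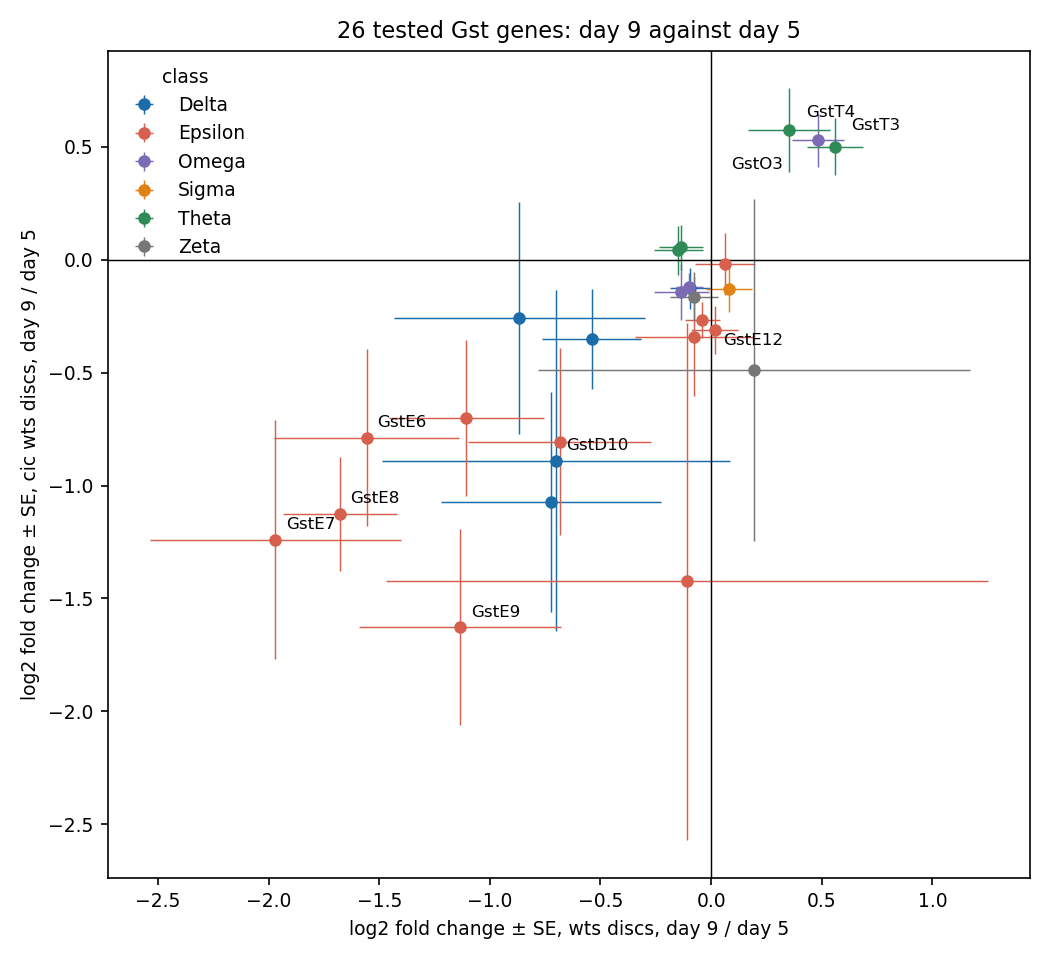
Log2 fold change at day 9 over day 5 for the 26 tested Gst genes in wts discs (horizontal) and cic wts discs (vertical), with standard errors, coloured by class. Genes of the Delta and Epsilon clusters, such as GstE8 (-1.68 and -1.13), lie in the lower left, and GstO3 (0.48 and 0.53), GstT3 (0.56 and 0.50) and GstT4 (0.35 and 0.57, not called) in the upper right.

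Most of these calls with age depended on single libraries. In wts discs only the GstE8 call held without any 1 of the 6 libraries, and those of GstE6, GstE7 and GstO3 were lost in 5 of 6 such fits and GstT3 in 4. In cic wts discs GstE9 and GstE12 were lost in 5 of 6, GstE8 and GstT3 in 3 and GstO3 in 2. Without cic wts day 5 replicate 1 and control replicate 3, the libraries rich in other tissues, the cic wts comparison called 1 member, GstE9, and GstE8 was at -1.03 (edgeR adjusted p = 0.055), GstO3 at 0.43 (edgeR adjusted p = 0.066) and GstT3 at 0.41 (edgeR adjusted p = 0.11). Fat body markers fell for 4 of 9 tested genes in cic wts discs at day 9, with sums of 158.2 to 187.4 CPM at day 9 and 147.4 to 901.8 CPM at day 5; their part in the Gst values was not tested. Adult muscle progenitor markers summed to 503.6 to 553.2 CPM at day 9, against 338.9 to 389.1 CPM at day 5, in wts discs, where 3 of 8 rose, and to 336.2 to 433.6 CPM at day 9, against 262.3 to 289.5 CPM at day 5, in cic wts discs, where 4 of 8 rose. The days did not overlap in either genotype, and the part of these markers was not tested.

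Of the Xrp1 and Minute response list, 5 of 14 rose and 0 fell in cic wts discs at day 9, among them the lactate dehydrogenase gene ImpL3 (3.82 ± 0.62, edgeR adjusted p = 0.0019), Gadd45 (1.26 ± 0.21, edgeR adjusted p = 0.0022) and hid (1.07 ± 0.19, edgeR adjusted p = 0.0037). In wts discs 2 of 14 rose, Gadd45 and ImpL3. Neither Xrp1 (0.36 ± 0.19 in wts and 0.30 ± 0.19 in cic wts discs) nor CG6272 (-0.04 ± 0.17 and 0.20 ± 0.17) was called. Of the regulators of the oxidative stress response, cnc rose by 0.215 ± 0.063 in cic wts discs (edgeR adjusted p = 0.042) and was at 0.15 ± 0.06 in wts discs (edgeR adjusted p = 0.15). The cnc call was lost without the 2 libraries rich in other tissues (0.20, edgeR adjusted p = 0.14), with only the libraries compared (edgeR adjusted p = 0.08), with the replicate block (edgeR adjusted p = 0.054) and in 5 of 6 fits that left out 1 library. In wts discs the ImpL3 call was also lost in 5 of 6 such fits.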

How the data were processed

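Gene counts of 18 RNA libraries (6 groups of 3) were used as the authors deposited them, as raw counts per gene without normalization; 13 ChIP-nexus samples were not analysed here. The submitters' processing notes name Bowtie2, TopHat2, HTSeq, DESeq2 and the dm6 build; versions, the strand setting and the treatment of reads that match several copies are not given in the sources that were used. Groups came from the sample labels, and no 2 libraries were identical.

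Counts were fitted with edgeR 4.0.16 in R 4.3.3 (quasi-likelihood test, TMM factors of 0.972 to 1.05, filterByExpr), all 18 libraries in 1 fit, with Benjamini-Hochberg adjusted p-values over 9004 genes and a threshold of 0.05. Library totals were 14201662 to 26217144 counts, and CPM was computed on these totals multiplied by the TMM factors. Standard errors were derived from the fold change and its F statistic. The fit was also run on simulated counts with the same spread for every gene and no libraries rich in other tissues. That run therefore does not bear on calls that depend on single libraries. The limits given for a count of 0 cover counting error only, while the standard errors also take in the spread among libraries. Gene positions came from the RefSeq table (Release 6). Alternatives were scaling by RLE or by totals alone, keeping genes with low counts, DESeq2 1.42.0, a replicate block, only the libraries compared, the roX level as a covariate, each library left out, and both libraries rich in other tissues left out. Values in every library are given for members called and with at least 5 CPM in a group; of other lists, called genes with the largest folds are named, up to 4 a list, plus Xrp1, CG6272, cnc and Keap1. The members and lists were chosen with earlier results of these data known.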

Additional observations from a re-analysis of the deposited data

Results flagged for a closer look

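The effect of losing cic on GstE6 was called as different between discs with and without wts at day 5. The interaction was -2.21 on the log2 scale (standard error 0.53, edgeR adjusted p = 0.046), the difference itself being what was tested. The effect was 0.11 ± 0.38 in cic wts against wts discs and 2.32 ± 0.38 in cic against control discs. Every one of the 12 fits without 1 library kept the sign, and 8 of them lost the call. The call was also lost with only the 12 day 5 libraries in the fit (edgeR adjusted p = 0.13) and with the roX covariate (edgeR adjusted p = 0.072).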

How the results depend on the processing

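No called value changed sign under the alternatives run. The number of Gst genes called moved by over 1.5 times in these cases. With only the libraries compared it was 0 for cic against control (4 in the fit of all libraries), 1 for cic wts against wts at day 5 (0), 2 for day 9 against day 5 in cic wts discs (5) and 0 for the interaction of cic with wts (1). With the roX covariate it was 1 for cic against control, 5 for cic wts against control (3), 1 for cic wts against wts at day 9 (2), 0 for the interaction of cic with wts and 6 for cic wts against cic (12). For cic wts against control it was 6 with total-count scaling and 7 with DESeq2. Without both libraries rich in other tissues it was 1 for day 9 against day 5 in cic wts discs and 2 for the interaction of cic with wts, which DESeq2 also put at 2. Leaving out 1 library gave 1 to 4 for cic against control, 2 to 4 for wts against control, 3 to 5 for cic wts against control, 0 in all 6 fits for cic wts against wts at day 5, 1 to 2 for that at day 9, 1 to 3 and 0 to 4 for day 9 against day 5 in wts and cic wts discs, 0 to 1 for the interaction of cic with wts and 9 to 11 for cic wts against cic; 25 members were expressed in all 18. Of the member calls tested with a library left out, 140 held and 76 were lost. Over 45 same-numbered pairs the correlation of deviations from the group means ran from -0.139 to 0.442 (median 0.054), with 15 over 0.1. Without values for pairs of different numbers beside them, these do not settle whether replicate numbers pair the samples. With the replicate block 34 of 35 member calls held, GstE7 in wts discs at day 9 against day 5 was lost (-2.02, edgeR adjusted p = 0.053), and the counts were otherwise 4 for cic against control, 3 for wts and for cic wts against control, 0 and 2 for cic wts against wts at day 5 and 9, 4 and 6 for day 9 against day 5 in wts and cic wts discs, 1 for the interaction with wts and 12 for cic wts against cic. The comparison of cic wts with cic discs and its alternatives were chosen after seeing the data. The causes of these shifts were not tested. Members under about 1 CPM are limited by depth.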
